A study of Mus musculus with 6 samples.

Results

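The 36 genes described here encode the transcription factor NRF2 (Nfe2l2), its regulators Keap1 and Bach1, and 33 enzymes, transporters and other proteins of antioxidant defence and detoxification that are known as NRF2 targets. They were chosen by gene name for their function, with iron and autophagy genes left out and with earlier results of these data known. For that reason, the shares of the 36 set beside those of all genes describe this list only. The count table, with 55367 gene names, held all 36. All 36 passed the filter on low counts that left 14916 genes for testing.

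NRF2 is a transcription factor that KEAP1 holds in the cytoplasm and hands to a CUL3 ubiquitin ligase for degradation. When electrophiles or oxidants modify KEAP1, NRF2 accumulates, pairs with small MAF proteins and binds antioxidant response elements near genes for glutathione synthesis, thioredoxin reduction, NADPH supply and the conjugation and export of reactive compounds, while BACH1 competes for the same elements. In skin, keratinocytes use these genes against ultraviolet light and chemical oxidants.

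RNA was sequenced from primary keratinocytes of newborn mice on a mixed C57BL/6 and 129/Sv background. The cells were grown on rat collagen in low-calcium medium, which the study's methods give as EMEM with supplements. All cultures carried floxed Ppp1r13l, the gene for iASPP, and a Cre-ERT recombinase that tamoxifen activates. In each of 3 batches, 1 isolation of cells was divided. After 24 h, the iASPP KO culture received medium with tamoxifen (listed as 1 mM in the labels and in micromolar units in the study's methods), and the iASPP WT culture received medium without it. Each group therefore had 3 libraries, paired by batch, and the effect of the deletion and that of the drug cannot be told apart. The library totals lay between 20202517 and 25157117 counts. Levels are given as counts per 1000000 (CPM) after TMM scaling, and 3 counts corresponded to 0.123 to 0.141 CPM, a floor that covers counting error only.

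Ppp1r13l itself was measured first as a check of the labels. Its level was 32.7, 45.1 and 21.0 CPM in the iASPP WT libraries of batches 1, 2 and 3, and 14.3, 17.7 and 5.91 CPM in the iASPP KO libraries. Every KO library was below every WT library, and the log2 fold change of KO over WT was -1.45 (SE 0.18, n = 3 batches, adjusted p = 0.00296, edgeR). The summed level of 10 basal keratinocyte markers, led by Krt14, was 27670 to 33560 CPM, and none of the 10 passed the test between KO and WT. The 10 were unequal, and Krt15 was at only 1.85 to 21.8 CPM.

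Batch 3 stood apart from the other batches in both groups. Between libraries of 1 group, the chi-square per gene was 40.1 and 47.6 for batches 1 and 2, against 122 to 169 for each pair that included batch 3. Fibroblast markers moved with this batch. The sum over 9 such genes was 43.2, 51.5 and 728 CPM in the WT libraries and 45.4, 58.4 and 505 CPM in the KO libraries, Col1a2 was the most abundant in 4 of the 6 libraries and Pdgfra in the KO libraries of batches 1 and 2 (16.3 and 24.4 CPM), and none of the 9 was at 0 in every library. Their part in the results below was not tested. In these bulk samples, fewer cells of a type and less RNA per cell cannot be told apart.

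Of the 36 genes, 4 were higher in iASPP KO than in iASPP WT keratinocytes. These were the glutathione transferases Gsto1 and Gsta4, the cystine importer Slc7a11 and the NADPH-producing enzyme Pgd. They were called by edgeR with batch in the model at an adjusted p under 0.05, and no gene of the 36 was lower. The 4 genes are 11.1% of the 36, against 2.17% of all tested genes called higher and 1.95% called lower. At an unadjusted p under 0.05, edgeR gave 13 of the 36 as higher and 1 as lower. Over all 14916 tested genes, these counts were 1292 and 1206. After adjustment, DESeq2 called 6 of 35 higher and 1 lower, against 483 and 410 of 12121 genes. Of these 6, 3 were among the 4 called by edgeR.

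The fitted log2 fold change was above 0 for 30 of the 36 genes and below 0 for 6. Its median was 0.27, against 0.0057 over all tested genes. The KO culture had the higher level in all 3 batches for 15 genes (41.7%), where 19.5% of all tested genes did so, and the lower level in all 3 for Keap1, Ugdh and Osgin1 (8.33%), where 19.7% did so. For none of the 36 did every KO library lie above every WT library (5.26% of all tested genes).

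**Figure D1:**
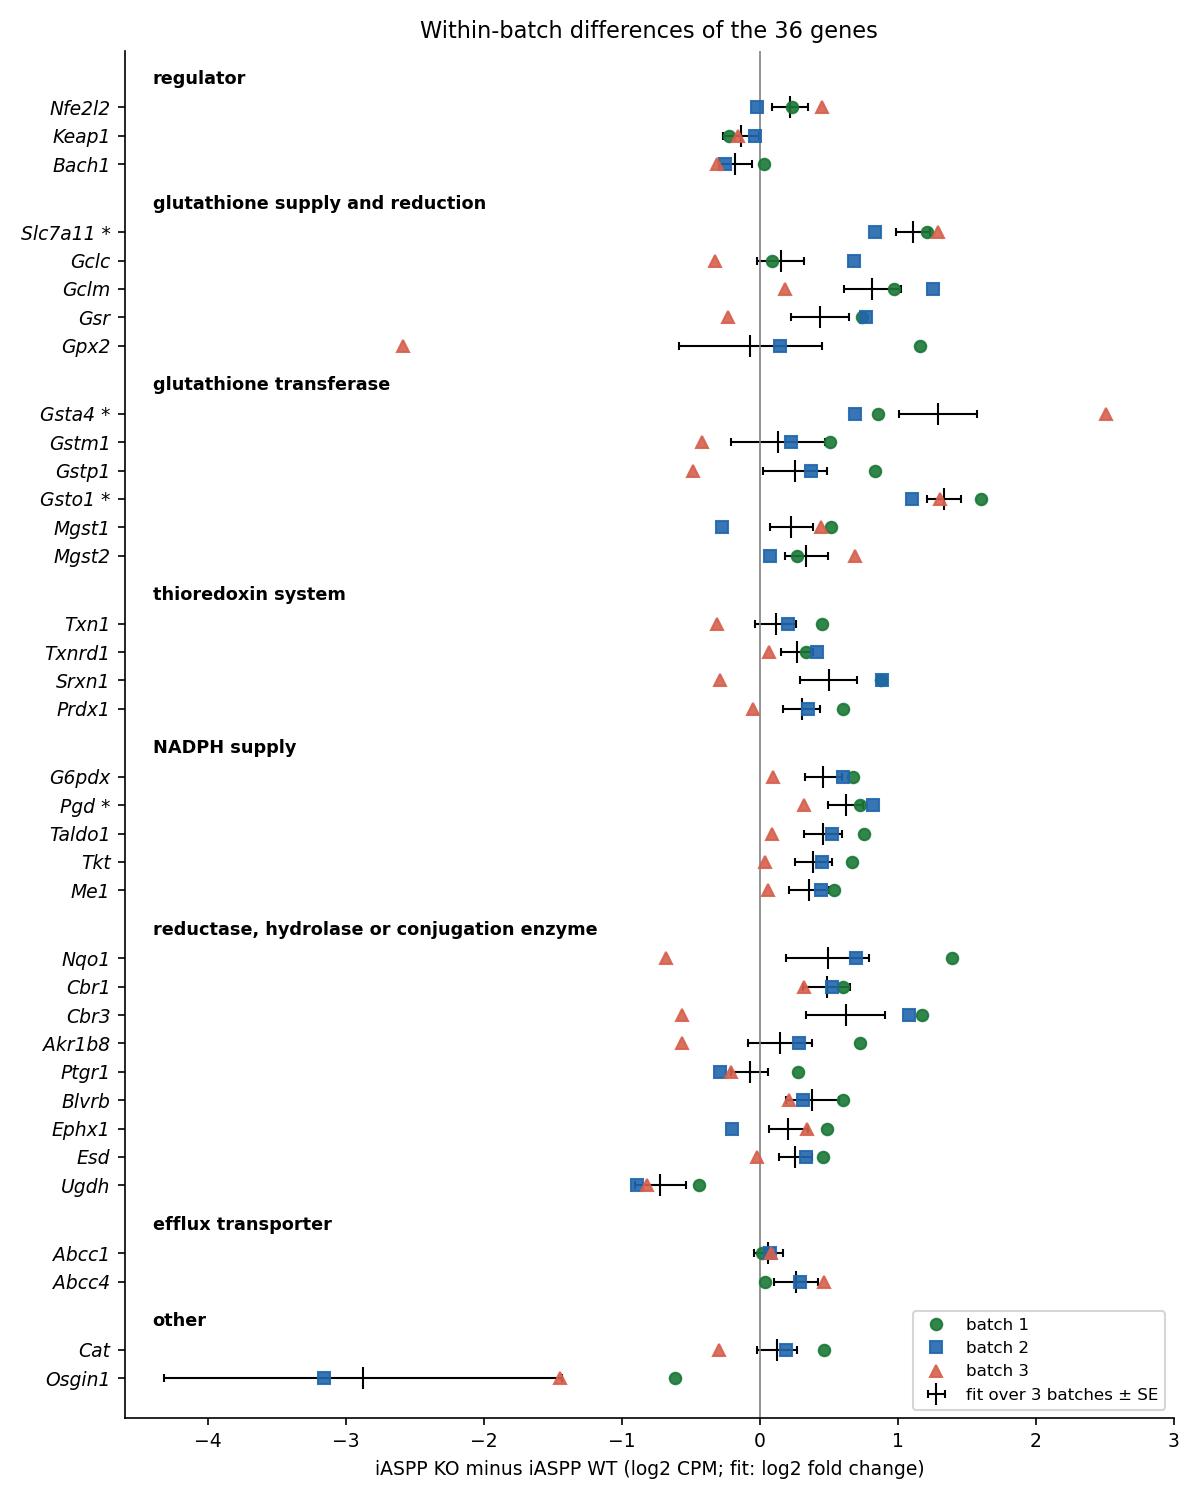
Difference between the iASPP KO and the iASPP WT culture of each batch (log2 CPM, coloured markers) for the 36 genes in the order of their roles, with the fitted log2 fold change and its standard error over the 3 batches in black (an asterisk marks an adjusted p under 0.05, edgeR). Slc7a11, Gsto1, Gsta4 and the 5 NADPH genes are above 0 in every batch, while many markers of batch 3 lie at or below 0.

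The antioxidant response element was looked for as TGACNNNGC on both strands (GCNNNGTCA on the other) in RefSeq promoter windows of 300 bases on GRCm38.p6, which run from 250 bases before to 50 after a transcript start. A gene can have several such windows, some of them inside the gene. Of the 36 genes, 32 were in the promoter table, and 11 of these (34.4%) held a match, against 3781 of 27025 genes in the table (14.0%) and 11 of 67 other genes of the pathway (16.4%). Gsr, Gclc, Gsta4 and Abcc1 were not in the table. Of the 4 genes called higher, Pgd held a match, in the window of a start inside the gene and not in the window nearer to the gene's outer end, and Slc7a11 and Gsto1 held none in these windows. Me1 and Prdx1 held the same 9 letters, TGACTCAGC, whose first 7 letters are also the AP-1 element TGACTCA. A match describes the letters of a window and was not tested as a binding site. The stretch around the match is printed for Pgd, and for 5 genes, chosen after their values were seen, that were called higher when batch 3 was left out. Srxn1 was called there too, and its match TGACCTAGC begins 29 bases after the start, as that of Pgd also begins after it. All 39 bases of the Srxn1 stretch lie after the start that its window was cut for, and it is not printed. In Pgd, 29 of the 43 bases lie after such a start, and the whole stretch lies inside the gene in the count table. The other 4 genes with a match, Abcc4, Mgst1, Nfe2l2 and Ugdh, were not called higher with 3 batches or without batch 3. Abcc4 and Ugdh held 2 matches each, and Ugdh was lower in KO in each batch (log2 fold change -0.72). Each printed stretch is written 5′ to 3′ on the strand on which the match reads TGACNNNGC, with the match in capitals.
Pgd (chr4:149166054-149166096, minus strand): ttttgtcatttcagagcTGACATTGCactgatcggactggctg
Me1 (chr9:86695895-86695937, minus strand): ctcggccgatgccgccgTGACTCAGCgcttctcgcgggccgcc
Prdx1 (chr4:116685449-116685491, minus strand): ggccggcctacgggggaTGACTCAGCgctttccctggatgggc
G6pdx (chrX:74428912-74428954, plus strand): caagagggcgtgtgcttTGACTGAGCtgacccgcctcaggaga
Gclm (chr3:122245406-122245448, minus strand): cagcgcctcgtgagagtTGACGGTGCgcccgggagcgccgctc
Txnrd1 (chr10:82859097-82859139, minus strand): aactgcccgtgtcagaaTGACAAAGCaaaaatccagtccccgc
Pgd and Me1 are transcribed from the minus strand, as printed, as is G6pdx, which is printed on the opposite strand. Prdx1, Gclm and Txnrd1 are on the plus strand and are also printed on the opposite one. Counted from the start that each window was cut for, the match began 4 bases after it in Pgd and 6, 57, 92, 133 and 134 bases before it in Me1, G6pdx, Txnrd1, Prdx1 and Gclm. Counted from the outer 5′ end of the gene in the count table, it began 33, 257, 692 and 25163 bases inside the gene in Me1, G6pdx, Pgd and Txnrd1, and 78 and 134 bases before it in Prdx1 and Gclm.

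None of the 3 regulators passed the test between KO and WT. Nfe2l2, which encodes NRF2, was at 71.2, 79.0 and 66.0 CPM in the WT libraries of batches 1, 2 and 3 and at 83.7, 77.8 and 90.0 CPM in the KO libraries. Its groups overlapped, and the log2 fold change was 0.22 (SE 0.13, adjusted p = 0.450, edgeR), with KO higher in 2 of 3 batches. Keap1, the substrate adaptor through which NRF2 is degraded, was at 42.8, 42.1 and 58.8 CPM in WT and 36.6, 41.2 and 52.8 CPM in KO, with a log2 fold change of -0.14 (SE 0.13). Its KO value was the lower one in each batch. Bach1, the repressor that competes for the same elements, was at 108, 113 and 125 CPM in WT and 111, 95.1 and 101 CPM in KO, with a log2 fold change of -0.18 (SE 0.12). The 3 transcripts summed to between 214 and 250 CPM in every library, and both Keap1 values of batch 3 were the highest of the 6.

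Of the 5 genes for glutathione supply and reduction, 1 rose. Slc7a11 encodes xCT, the light chain of the antiporter that brings in cystine for glutathione synthesis. It was at 359, 599 and 91.9 CPM in the WT libraries of batches 1, 2 and 3 and at 830, 1066 and 225 CPM in the KO libraries. In each batch the KO culture was the higher one, by 1.21, 0.83 and 1.29 on the log2 scale, although both libraries of batch 3 were below all others. The log2 fold change was 1.11 (SE 0.12, n = 3 batches, adjusted p = 0.00164, edgeR), and it passed the threshold in all 9 alternatives that kept batch in the model.

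Gclc and Gclm encode the catalytic and the modifier subunit of glutamate-cysteine ligase, the enzyme of the first step of glutathione synthesis. Gclc, the most abundant of these 5 per kilobase in WT, was at 234, 202 and 110 CPM in WT and at 249, 324 and 88.1 CPM in KO. Its difference between KO and WT was 0.09, 0.68 and -0.32 log2 in batches 1, 2 and 3, and it did not pass the test. Gclm was at 22.4, 26.2 and 16.5 CPM in WT and 44.1, 62.7 and 18.8 CPM in KO. The KO culture was the higher one in each batch, least so in batch 3, where the difference was 0.18 log2 against 0.97 and 1.25 in the others. Its log2 fold change of 0.82 (SE 0.20) had an adjusted p of 0.0547 by edgeR, just outside the threshold, and between 2.63e-09 and 0.358 over the alternatives with batch in the model, of which 7 of 9 passed. Gsr, glutathione reductase, had a log2 fold change of 0.44 (SE 0.21), with differences of 0.74, 0.77 and -0.23. Gpx2, a glutathione peroxidase, was a low gene at 0.297 to 18.7 CPM, and its differences of 1.16, 0.15 and -2.59 ran in opposite directions.

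Of the 6 glutathione transferases, which join glutathione to electrophiles, 2 rose. Gsto1, an omega-class enzyme that also reduces mixed disulfides with glutathione, was at 384, 776 and 231 CPM in WT and at 1165, 1667 and 569 CPM in KO. The KO culture was higher in each batch, by 1.60, 1.10 and 1.30 log2. Its log2 fold change of 1.34 (SE 0.12, adjusted p = 0.00109, edgeR) was the largest of the 36 genes, and it passed in all 9 alternatives with batch in the model.

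Gsta4, which conjugates the lipid peroxidation product 4-hydroxynonenal, was the most abundant of these transferases per kilobase in batches 1 and 2, where Gsto1 was so in batch 3. It was at 603, 801 and 10.1 CPM in the WT libraries of batches 1, 2 and 3 and at 1092, 1291 and 57.9 CPM in the KO libraries. Batch 3 was far below the others in both groups, and it also held the largest difference, 2.51 log2 against 0.86 and 0.69. The log2 fold change was 1.29 (SE 0.28, adjusted p = 0.0322, edgeR), and 0.77 (SE 0.12) without batch 3. Its adjusted p was 0.126 with DESeq2 and 0.324 with robust dispersion, the highest over the alternatives with batch in the model. The lowest was 4.92e-22, by edgeR with no filter beyond 1 count, a fit whose SE for Gsta4 was only 0.125.

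The other 4 transferases did not pass the test. Their log2 fold changes were 0.13 for Gstm1, 0.25 for Gstp1, 0.23 for Mgst1 and 0.34 for Mgst2, the last 2 being microsomal enzymes. Gstp1 had differences of 0.84, 0.37 and -0.48 log2 in batches 1, 2 and 3, and Gstm1 of 0.51, 0.23 and -0.42. Counts of both are uncertain, because 64.2% of the 42-base windows of Gstp1 transcripts, and 27.2% of those of Gstm1, also occur in transcripts of other genes, among them Gstp2 and Gstm2, and reads that map to several places were not counted. The shares for Keap1, G6pdx, Prdx1, Taldo1 and Esd were 11.0%, 13.3%, 13.5%, 15.3% and 16.7%. Each share is that of the longest transcript and includes matches on either strand, so it is not the share of reads lost.

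None of the 4 genes of the thioredoxin system passed the test, although all 4 fitted values were above 0. Txn1, thioredoxin itself and the most abundant of the 4 per kilobase, was at 180, 246 and 331 CPM in WT and 245, 283 and 267 CPM in KO. The KO culture was higher in batches 1 and 2 and lower in batch 3, and the log2 fold change was 0.11 (SE 0.15). Srxn1, sulfiredoxin, which repairs overoxidised peroxiredoxins, was at 120, 135 and 117 CPM in WT and 220, 250 and 95.7 CPM in KO. Its differences were 0.88, 0.89 and -0.29 log2, almost equal in 2 batches and opposite in the other, and the log2 fold change was 0.50 (SE 0.21, adjusted p = 0.251, edgeR). Txnrd1, the reductase that recharges thioredoxin with NADPH, had differences of 0.33, 0.41 and 0.06, and the peroxiredoxin Prdx1 had 0.60, 0.35 and -0.05.

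All 5 genes of NADPH supply were higher in KO in all 3 batches, as were both efflux transporters described below, and 1 of the 5 passed the test. Pgd, 6-phosphogluconate dehydrogenase, makes NADPH in the pentose phosphate pathway. It was at 410, 480 and 135 CPM in WT and at 678, 846 and 168 CPM in KO, a difference of 0.72, 0.82 and 0.32 log2 in batches 1, 2 and 3. The log2 fold change was 0.62 (SE 0.13, adjusted p = 0.0239, edgeR), and the adjusted p was 0.110 without batch 1 and 0.196 without batch 2, over a range of 1.15e-08 to 0.196.

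The other 4 did not pass. Taldo1, transaldolase of the same pathway and the most abundant of these 5 per kilobase, was at 261, 338 and 187 CPM in WT and 440, 486 and 198 CPM in KO, with a log2 fold change of 0.46 (SE 0.14, adjusted p = 0.108, edgeR). G6pdx, the dehydrogenase at the entry to the pathway, had a log2 fold change of 0.46 (SE 0.14, adjusted p = 0.0983, edgeR), Tkt, transketolase, 0.39 (SE 0.13) and Me1, cytosolic malic enzyme, 0.35 (SE 0.15). In batch 3 the differences of these 4 genes were 0.04 to 0.10 log2, against 0.44 to 0.75 in the others. Of the 42-base windows of Me1, 36.5% also occur in transcripts of other genes.

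**Figure D2:**
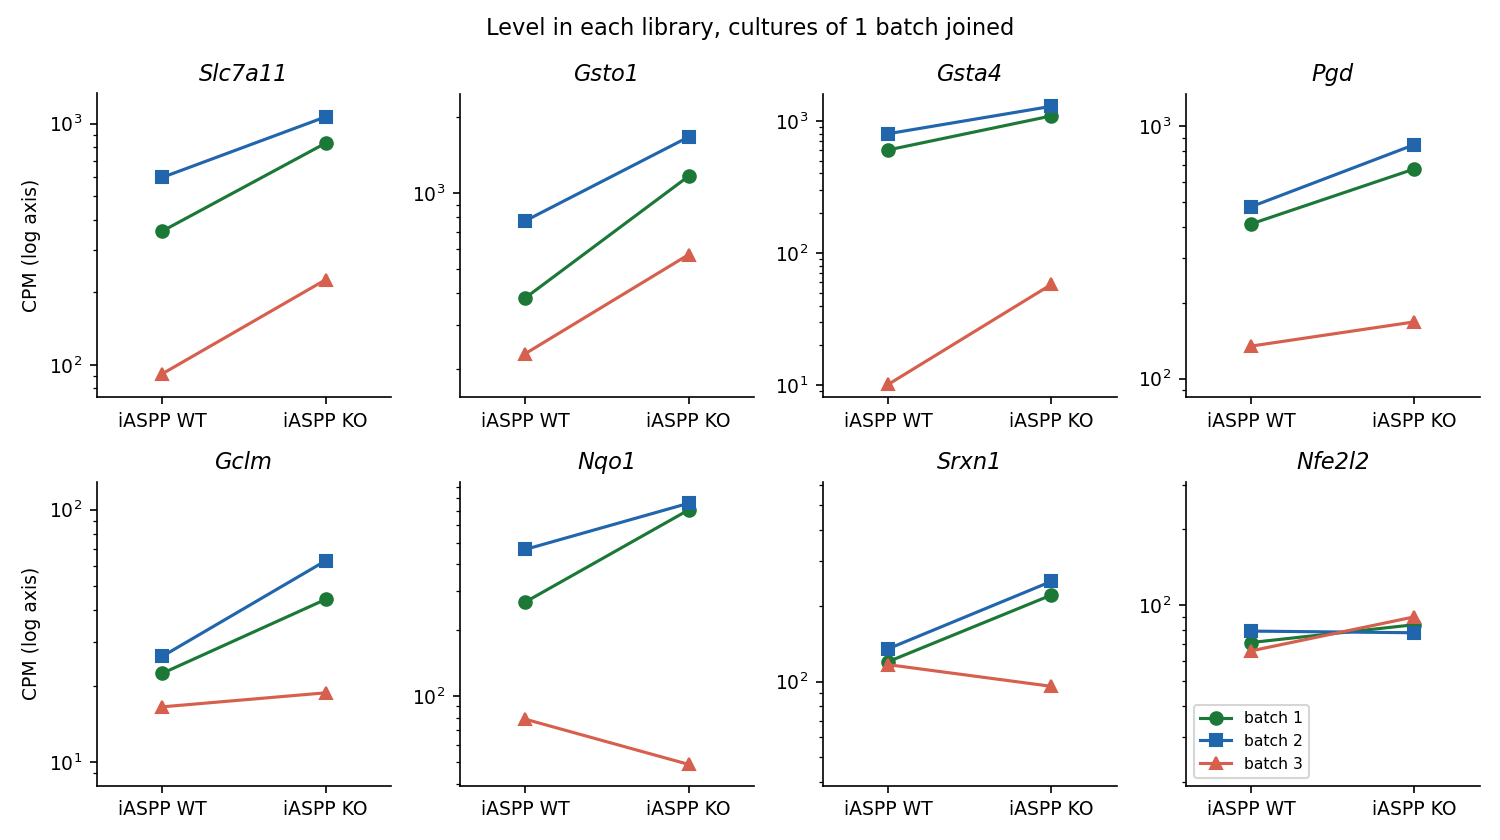
Level of 8 genes in each library (CPM, log axis with its own range in each panel), with the iASPP WT and iASPP KO culture of 1 batch joined by a line. Slc7a11, Gsto1, Gsta4 and Pgd are higher in KO in each batch, Nqo1 and Srxn1 are higher in KO in batches 1 and 2 and lower in batch 3 (Nqo1 at 49.0 CPM in KO and 78.7 CPM in WT), and Nfe2l2 stays between 66.0 and 90.0 CPM.

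None of the 9 reductase, hydrolase and conjugation genes passed the test. Nqo1, the quinone reductase that is a common readout of NRF2 activity, was at 269, 466 and 78.7 CPM in the WT libraries of batches 1, 2 and 3 and at 704, 756 and 49.0 CPM in the KO libraries. Its differences of 1.39, 0.70 and -0.68 log2 gave a fitted change of 0.49 (SE 0.30, adjusted p = 0.476, edgeR). Cbr3, a carbonyl reductase, had the same order of signs, with 29.4, 39.4 and 12.3 CPM in WT and 66.5, 83.3 and 8.24 CPM in KO.

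Esd, an esterase that hydrolyses S-formylglutathione and the most abundant of these 9 per kilobase in WT, was at 1018, 1327 and 607 CPM in WT and 1398, 1676 and 597 CPM in KO. Its differences were 0.46, 0.34 and -0.02 log2. The carbonyl reductase Cbr1 and the biliverdin reductase Blvrb were higher in KO in each batch, with log2 fold changes of 0.48 (SE 0.17) and 0.38 (SE 0.19). The aldo-keto reductase Akr1b8 (0.14), the prostaglandin reductase Ptgr1 (-0.07) and the microsomal epoxide hydrolase Ephx1 (0.21) changed sign between batches.

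Ugdh ran the other way in each batch. It encodes UDP-glucose dehydrogenase, which makes the glucuronic acid donor for glucuronidation and for hyaluronan. Its level was 15.9, 16.1 and 34.6 CPM in WT and 11.7, 8.66 and 19.6 CPM in KO, and both libraries of batch 3 were the highest of the 6. The log2 fold change was -0.72 (SE 0.19) with an adjusted p of 0.0626 by edgeR, between 0.0215 and 0.288 over the alternatives with batch in the model and 0.0483 with DESeq2.

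Neither of the 2 efflux transporters passed the test between KO and WT. Abcc1, which exports glutathione conjugates, was at 459, 401 and 194 CPM in WT and 465, 422 and 206 CPM in KO, and its log2 fold change of 0.06 had an SE of 0.11. Abcc4, an exporter of organic anions, had a log2 fold change of 0.26 (SE 0.16). Cat, the peroxisomal catalase, was at 109, 159 and 84.4 CPM in WT and 151, 181 and 68.9 CPM in KO, with a log2 fold change of 0.12 (SE 0.15). Osgin1, an oxidative stress-induced growth inhibitor, had the lowest mean level of the 36 genes in both groups, although not the lowest level within batch 3. It was at 0.0469, 0.697 and 2.0 CPM in WT and 0, 0 and 0.680 CPM in KO. Its counts were 1, 17 and 45 in WT and 0, 0 and 16 in KO, so that 3 of the 6 libraries were under the floor of 3 counts, and its fitted value was -2.88 (SE 1.44).

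**Figure D3:**
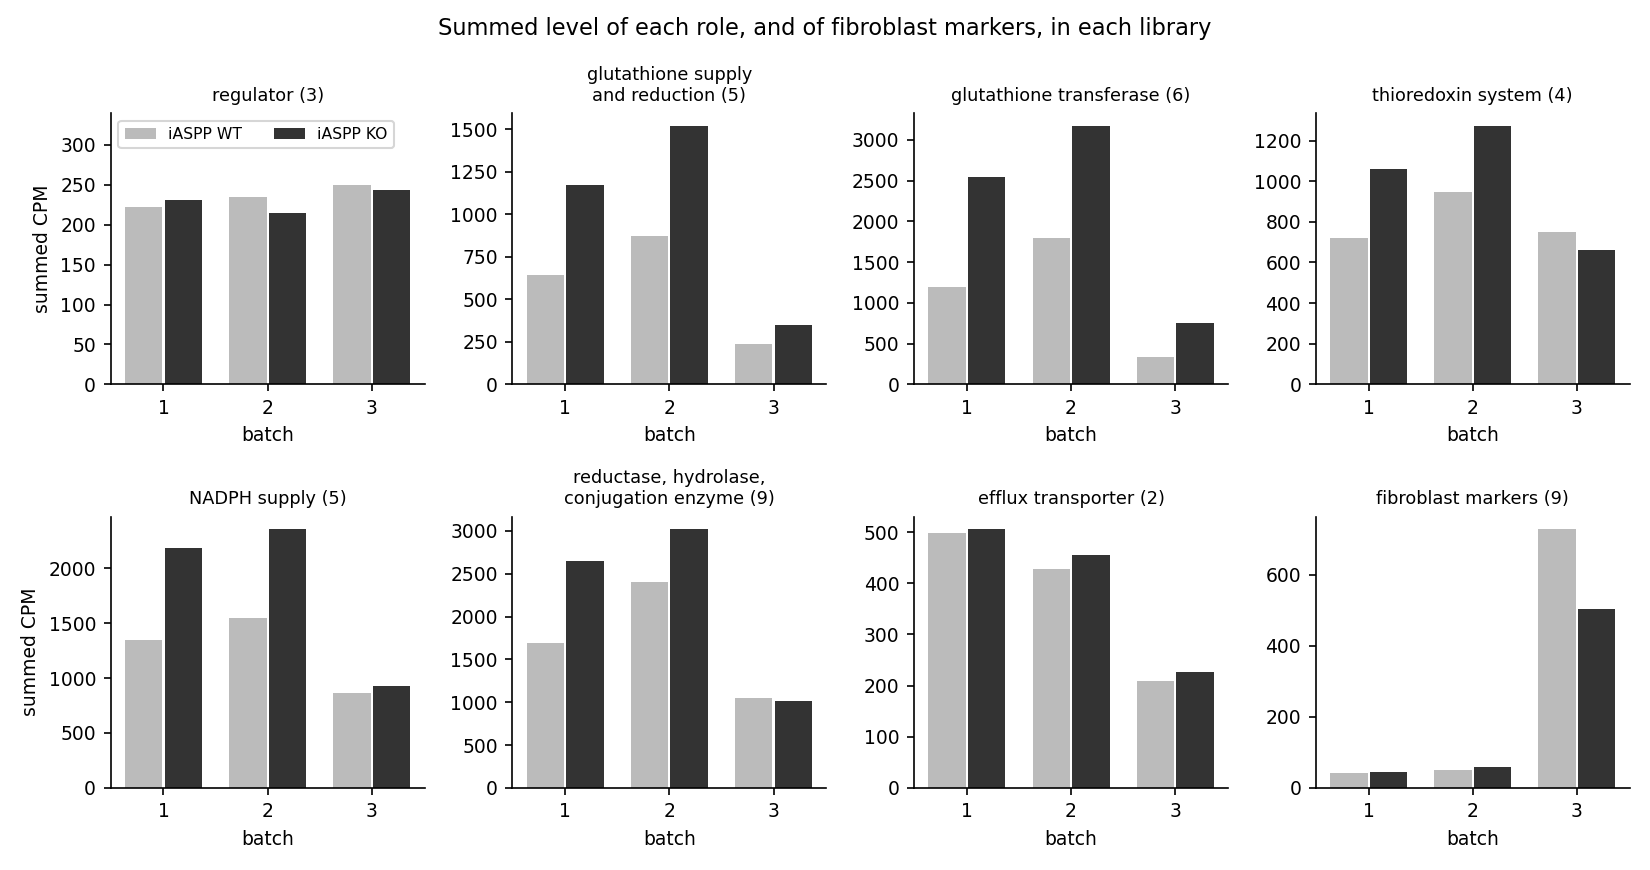
Summed level (CPM, bars from 0) of each role, and of 9 fibroblast markers, in the iASPP WT (grey) and iASPP KO (black) library of each batch, with the number of genes in brackets. Glutathione transferases sum to 1189 and 2542 CPM in WT and KO of batch 1 and to 341 and 754 CPM in batch 3, the regulators stay between 214 and 250 CPM, and the fibroblast markers are highest in batch 3.

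Batch 3 had the lowest levels of most of these genes. The 36 genes summed to 6415, 8393 and 3790 CPM in the WT libraries of batches 1, 2 and 3 and to 10500, 12190 and 4236 CPM in the KO libraries. For 26 of the 36, both libraries of batch 3 were below the 4 others, where 19.3% of all tested genes showed this order. The same count was 1 for batch 1 (6.21% of all tested genes) and 0 for batch 2 (8.07%). The 10 exceptions were the 3 regulators, Gsto1, Txn1, Cbr1, Akr1b8, Ephx1, Ugdh and Osgin1.

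The median difference between KO and WT was also smallest there. In batch 1 the KO culture had the higher level of 33 of the 36 genes (91.7%), in batch 2 of 28 (77.8%) and in batch 3 of 18 (50%), while the share over all tested genes was 49.5%, 49.7% and 50.3%. The median difference of the 36 was 0.57, 0.34 and 0.01 log2 in batches 1, 2 and 3, and that of all tested genes lay between -0.0054 and 0.0034. In the fibroblast list, 2 of 9 genes were called lower in KO (1.95% of all tested genes), Col1a2 and Col3a1, with log2 fold changes of -0.55 and -0.87, and 0 were called higher, although the values of Pdgfra (0.81) and Twist2 (0.50) were above 0. Whether their level bears on the values of batch 3 was not tested.

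**Figure D4:**
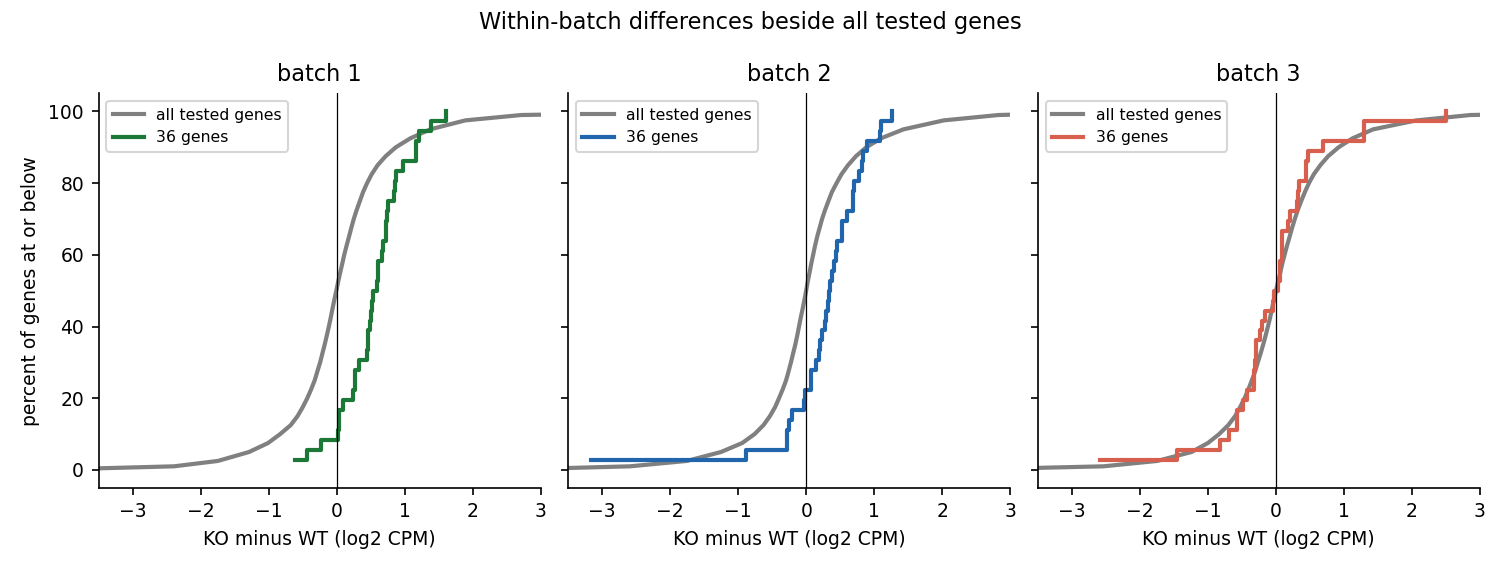
Cumulative share (percent) of the 36 genes (coloured steps) and of all tested genes (grey) by their difference between KO and WT within each batch (log2 CPM; the axis is drawn from -3.5 to 3). The median of the 36 genes is 0.57 in batch 1, 0.34 in batch 2 and 0.01 in batch 3; over most of their range the 36 lie to the right of all genes in batches 1 and 2, with the curves crossing at the upper end in both and at the lower end in batch 2, and the curves cross several times in batch 3.

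A term for a KO effect that differs between 1 batch and the other 2, added after the data were seen, was fitted for each batch in turn with edgeR. Such a fit sets 1 pair of cultures, which has no spread of its own, against 2 pairs. The 1 residual degree of freedom comes from the difference between those 2 pairs, and edgeR adds prior degrees of freedom from all genes. These were 8.71 and 13.1 in the fits for batches 1 and 2. In the fit for batch 3 they were infinite, so that each gene was taken to vary like others of its level whatever its own difference between batches 1 and 2, and the median SE over the 36 genes was 0.222, against 0.328 and 0.340. The 3 fits are thus unlike in form, and their counts are not compared. For batch 3 it called a smaller KO effect in 6 of the 36 genes (1.24% of all tested genes) and a larger one in 1 (1.45% of all tested genes). The 6 were Nqo1, Cbr3, Srxn1, Gclc, Gstp1 and Gpx2, and the 1 was Gsta4. These calls hold only under that assumption, and with 1 pair in batch 3 they do not establish for any of the 7 genes that the KO effect differs there. For Gclc, the difference of batch 1 (0.09) was nearer to that of batch 3 (-0.32) than to that of batch 2 (0.68). For batch 1 and for batch 2 it called 0% of all tested genes in either direction, with 363 and 444 genes at an unadjusted p under 0.05, of which 2 in each case were among the 36. No other tool was run on this term.

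With batch 3 left out, 18 of the 35 genes then tested were called higher in KO (51.4%) and 0 lower, against 5.2% of all genes called higher in that fit. At an unadjusted p under 0.05, this edgeR fit gave 24 as higher and 1 as lower, and Osgin1 did not pass its filter. Over all 15261 genes of the fit, these counts were 1522 and 1442. The 4 genes called with 3 batches were among the 18. All 5 NADPH genes were called, with log2 fold changes of 0.77 for Pgd, 0.64 for G6pdx, 0.64 for Taldo1, 0.56 for Tkt and 0.49 for Me1. The others were Gclc, Gclm and Gsr of the glutathione genes, Gstp1 of the transferases, Txnrd1, Srxn1 and Prdx1 of the thioredoxin system, and Nqo1, Cbr3 and Esd. The log2 fold change was 1.13 (SE 0.15) for Cbr3, 1.12 (SE 0.17) for Gclm, 1.04 (SE 0.12) for Nqo1 and 0.88 (SE 0.13) for Srxn1. This fit rests on 2 pairs of cultures and 1 residual degree of freedom, again with an infinite prior and the same assumption, and the median SE over the 35 genes was 0.127. Leaving out batch 1 or batch 2 gave 3 genes called higher in each case, against 1.09% and 1.14% of all tested genes. Those fits had a prior of 14.5 and 11 and a median SE over the 36 genes of 0.193 and 0.201, so 18 and 3 come from fits of unlike form.

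**Figure D5:**
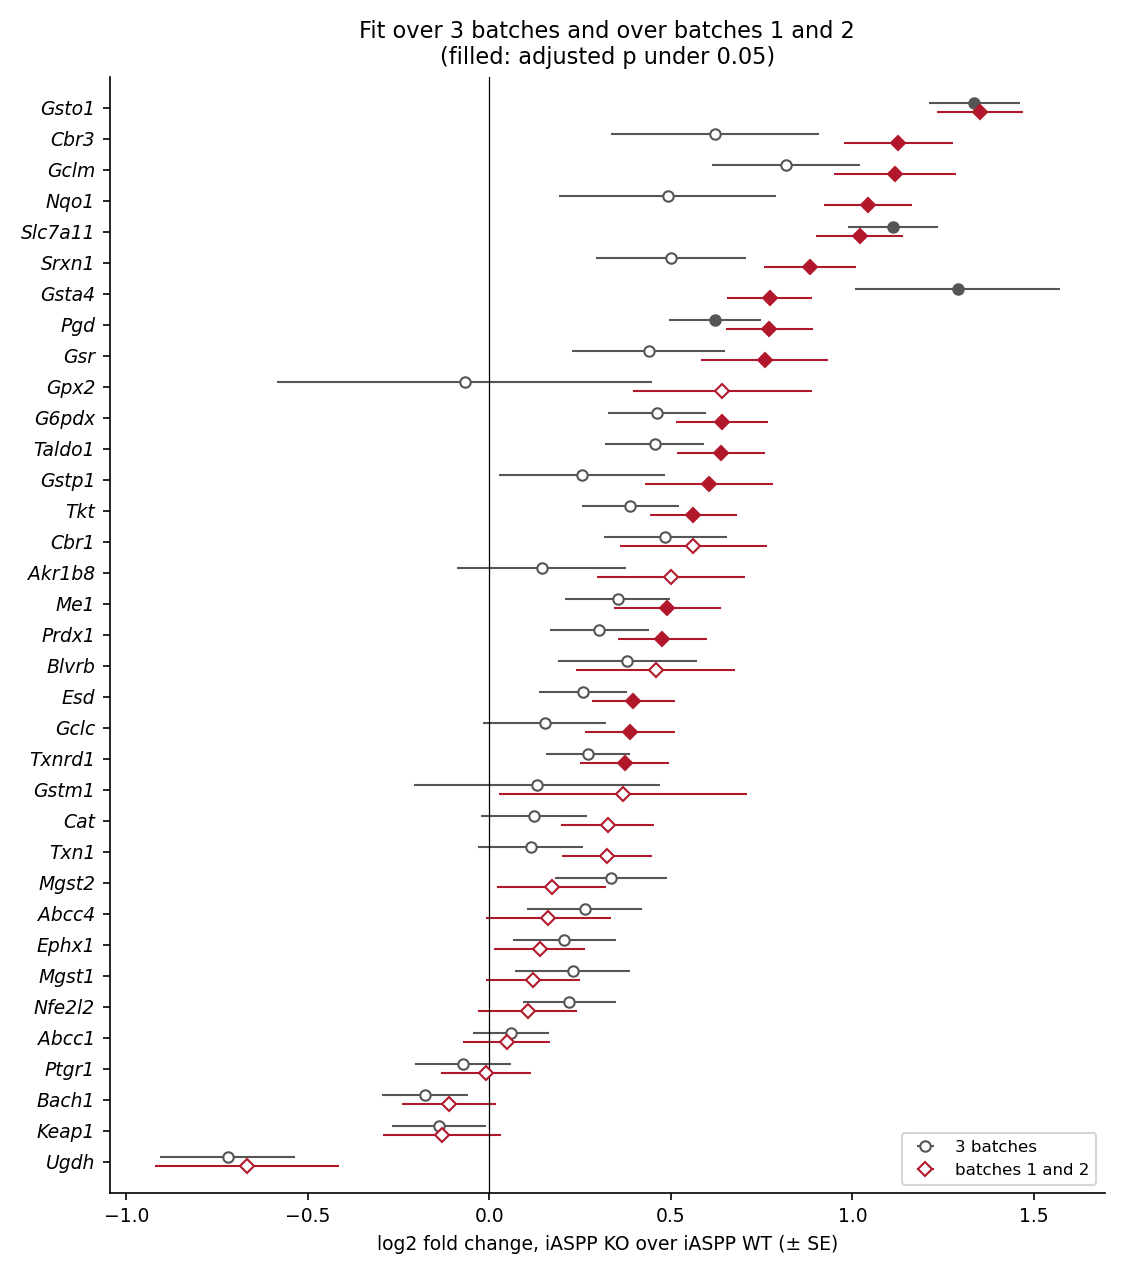
Fitted log2 fold change of iASPP KO over iASPP WT with its standard error for 35 of the 36 genes (all but Osgin1), over 3 batches (grey circles) and over batches 1 and 2 (red diamonds); filled markers have an adjusted p under 0.05 by edgeR. Filled diamonds number 18 and filled circles 4, and Slc7a11 and Gsto1 have nearly the same value in both fits.

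Of 76 other genes of the pathway, 68 were tested, and 4 rose and 0 fell in KO. This is 5.88% called higher, against the 2.17% over all tested genes given above, with a median log2 fold change of 0.10. At an unadjusted p under 0.05, edgeR gave 12 as higher and 3 as lower, against 1292 and 1206 of all 14916 genes. After adjustment, DESeq2 called 7 of 61 higher and 0 lower, against 483 and 410 of 12121 genes. Both libraries of batch 3 were below the 4 others for 13 of the 68 genes and above them for 15. Over all 14916 tested genes, these counts were 2885 and 2845. Without batch 3, edgeR called 9 of 68 higher (13.2%) and 0 lower, against 5.2% of all genes called higher. The 4 called by edgeR with 3 batches were Abcc3, Gsta1, Gsta3 and Prdx5.

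Abcc3, an exporter of glucuronide and glutathione conjugates, was at 34.1, 51.5 and 1.25 CPM in WT and at 77.5, 85.0 and 5.52 CPM in KO, with a log2 fold change of 1.20 (SE 0.22, adjusted p = 0.0155, edgeR). The alpha-class transferase Gsta3 was at 84.1, 96.4 and 2.18 CPM in WT and at 157, 139 and 4.72 CPM in KO, with a log2 fold change of 0.80 (SE 0.14). Like Gsta4, both were far lower in batch 3 in either group. Gsta1 was at 8.95, 13.3 and 0.267 CPM in WT and 25.8, 25.2 and 0.552 CPM in KO, with a log2 fold change of 1.20 (SE 0.25). Its counts are uncertain, since 90.8% of its 42-base windows also occur in other transcripts, Gsta2 among them. By edgeR, the adjusted p of Gsta1 was 0.279 without batch 1 and 0.114 without batch 2, over a range of 3.54e-06 to 0.279, and that of Gsta3 was 0.0792 without batch 1, over a range of 2.23e-06 to 0.0792.

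Prdx5, a peroxiredoxin of mitochondria, peroxisomes and cytosol, showed the steadiest difference of the 4. It was at 166, 195 and 122 CPM in WT and 304, 313 and 210 CPM in KO. Its differences were 0.87, 0.68 and 0.78 log2, and the log2 fold change was 0.78 (SE 0.11, adjusted p = 0.00489, edgeR). Of its 42-base windows, 13.4% also occur in transcripts of Trmt112.

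None of the 8 other regulators in that list passed the test, among them the small MAF partners Maff, Mafg and Mafk and the ligase subunits Cul3 and Rbx1, and their log2 fold changes lay between -0.18 and 0.33.

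Markers of other cell types were read beside these results. Of 9 leukocyte markers, 5 were tested and 1, Csf1r, was called higher in KO (2.17% of all tested genes). All 5 had a fitted value above 0, and 3 of them were higher in KO in all 3 batches. The 9 summed to 43.6, 59.3 and 63.6 CPM in WT and 65.1, 70.4 and 79.7 CPM in KO, Cd3e was at 0 in every library, and 4 were under 1 CPM in every library. Cd68 was the most abundant in batches 1 and 2, at 29.8 to 42.5 CPM, and was at 8.95 and 10.9 CPM in batch 3. There Lyz2, a lysozyme of myeloid cells, was the most abundant, at 49.6 CPM in WT and 59.1 CPM in KO, against 1.11 to 4.81 CPM in the other batches. Csf1r, the receptor of macrophage colony-stimulating factor, was at 9.09, 15.1 and 1.92 CPM in WT and 18.5, 28.8 and 5.23 CPM in KO. The part of these markers in the results was not tested. The 7 melanocyte markers, led by Pmel in batch 1 and in WT of batch 2, by Tyrp1 in KO of batch 2 and by Dct in batch 3, summed to between 367 and 1126 CPM, and the 5 endothelial markers to between 2.76 and 13.0 CPM, with none of either list called.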

How the data were processed

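The authors deposited 1 table of raw counts per gene name. Per its header and the study's notes, it was made on mm10 with cutadapt 2.10, STAR 2.7.3 and featureCounts 2.0.0 (strand-specific, multi-mapping reads not counted). The reads were single 42-base reads of RNA depleted of ribosomal RNA. A second deposited table holds the authors' own DESeq2 comparison, which was not used here.

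From the counts, genes were filtered with filterByExpr, scaled by TMM and tested in edgeR 4.0.16 (R 4.3.3, limma 3.58.1) by the quasi-likelihood test with batch and group, as the study adjusted for batch. Benjamini-Hochberg adjustment ran over all 14916 tested genes, with a threshold of 0.05. The fit had 2 residual degrees of freedom and a prior of 8.17. The standard error is the absolute log2 fold change over the square root of F. Differences within a batch use log2 CPM with a prior count of 2. Scripts were tested on simulated data. Python 3.11.15, pandas 2.3.3, numpy 2.4.6 and matplotlib 3.10.9 served for promoters, transcript windows (GENCODE vM21) and plots.

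The labels state that both cultures of a batch come from 1 isolation, which pairs them. Deviations from the group means correlated at 0.302, 0.368 and 0.568 within batches and at -0.427 to 0.179 between them. Without the batch term (no replicate block), 0 of the 36 genes were called. Alternatives were DESeq2 1.42.0, DESeq2 size factors and upper-quartile scaling in edgeR, 2 other filters, robust dispersion and each batch left out.

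The 36 genes and the lists were chosen with earlier results of these data known. Values in every library are given for genes past the threshold, the 3 regulators, the most abundant gene of each role per kilobase (mean of the WT libraries) and, chosen after their values were seen, Gclm, Srxn1, Nqo1, Cbr3, Ugdh and Osgin1. Other pathway genes past the threshold are named, largest log2 fold change first.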

Additional observations from a re-analysis of the deposited data

Results flagged for a closer look

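For 7 of the 36 genes, an edgeR term added after the data were seen set the KO effect of batch 3 apart from that of the other 2 batches (adjusted p under 0.05). Over all tested genes, the term gave a smaller effect in batch 3 for 1.24% and a larger one for 1.45%. Batch 3 is 1 pair of cultures with no spread of its own, and the infinite prior of this fit passes over the spread between batches 1 and 2, so the term does not establish a difference for any 1 of the 7. The effect in batch 3 minus that in the others was -3.53 log2 for Gpx2 (SE 0.69), -1.73 for Nqo1 (SE 0.22), -1.70 for Cbr3 (SE 0.31), -1.17 for Srxn1 (SE 0.22), -1.09 for Gstp1 (SE 0.33) and -0.71 for Gclc (SE 0.22). For Gsta4 it was 1.74 (SE 0.23). The fibroblast markers that were higher in batch 3 were not tested as part of this. Groups of 3 libraries were not tested for single values that stand apart.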

How the results depend on the processing

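Without the batch term (no replicate block), edgeR called 0 genes of the 36, of the other pathway genes and of all tested genes in either direction, with 360 higher and 331 lower of all at an unadjusted p under 0.05. With no filter beyond 1 count, 11 of the 36 were called higher and 1 lower, 9 other pathway genes higher, and 624 of all genes higher and 491 lower. The standard errors of that fit were unlike those of the main fit. They were 0.127 against 0.298 for Nqo1 and 0.125 against 0.281 for Gsta4, whose KO effects varied between batches. That of Keap1 was 0.155 against 0.13. Its count is thus not of the same form as that of the main fit. DESeq2 called 1 of the 36 lower (Ugdh) and 7 other pathway genes higher. Leaving out 1 batch gave 3 to 18 of the 36 higher, 2 to 9 other pathway genes higher, and of all genes 169 to 793 higher and 117 to 662 lower, the highest without batch 3 each time, in a fit whose prior degrees of freedom were infinite, against 14.5 and 11 without batches 1 and 2. The cause was not tested. The other counts stayed within 1.5 times, no called value changed sign, and no scaling moved the median of all genes by over 0.1 log2. Slc7a11 and Gsto1 passed in all 9 alternatives with batch in the model. Depth limits Osgin1, which was under the floor of 3 counts in 3 libraries, and, in batch 3, Gsta1 (6 and 13 counts in WT and KO) and Gpx2 in KO (7 counts).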
